A study of Homo sapiens with 21 samples.

Results

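CCR1, DMBT1, MYPN, CELF2, IGFN1 and ABCA1 are 6 genes that were picked because their RNA was lower, or changed in a graded way, in SK-MEL-147 cells given TP-472, JQ-1 or both. They are 6 of the 26475 genes in the deposited table, and all 6 were among the 15062 genes with enough counts to be tested. They were proposed as genes lowered by both of these bromodomain inhibitors. That description did not hold for DMBT1, whose TP-472 libraries overlapped the untreated ones, so the genes are called here the 6 picked genes. They were chosen by their levels with TP-472 and JQ-1 beside untreated cells, and these levels are given as a description with no test.

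Poly-A selected RNA of SK-MEL-147, an established human melanoma line, was sequenced in 21 libraries, 3 for each of 7 groups. The groups were untreated cells and cells treated with TP-472 (a ligand of the bromodomains of BRD9 and BRD7), JQ-1 (a ligand of the bromodomains of the BET proteins, such as BRD2), GSK-591 (a PRMT5 inhibitor), GSK-484 (a PADI4 inhibitor), MS023 (an inhibitor of type I arginine methyltransferases) or UNC0642 (an inhibitor of the histone methyltransferases EHMT1 and EHMT2). Each group is the same line with no genotype difference named. The sources used here name no dose, treatment time or vehicle. The 3 replicates of a group are named biological, but no source says that they came from separate cultures. The p-values therefore reflect the spread among these libraries alone, and that spread may be technical.

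Bromodomains are protein modules that bind acetylated lysine, mainly on histone tails. The BET proteins link acetylated chromatin to the transcription elongation machinery, and BRD9 and BRD7 are subunits of different SWI/SNF chromatin remodelling complexes. The 6 picked genes belong to no common pathway: they encode a chemokine receptor (CCR1), a secreted scavenger receptor glycoprotein (DMBT1), a pair of sarcomere proteins (MYPN and IGFN1), an RNA-binding splicing regulator (CELF2) and a membrane exporter of cholesterol (ABCA1).

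The promoter sequences of 5 of the genes are shown because the 6 genes share a direction with JQ-1. Their start regions share some elements and levels of base composition and differ in others. Each runs for the 250 bases before the start of a RefSeq transcript, 5′ to 3′ on the gene's own strand, from RefSeq on GRCh38.p14. The gene positions given further on are from GENCODE 29, whose outermost start differs: the MYPN window lies wholly inside the GENCODE gene, kilobases downstream of that start, those of CCR1, DMBT1 and ABCA1 reach across it, and that of IGFN1 lies before it. All motif positions count from the RefSeq start. The windows are chr3:46208314-46208563 on the minus strand for CCR1, chr10:122560504-122560753 on the plus strand for DMBT1, chr10:68109238-68109487 on the plus strand for MYPN, chr1:201190574-201190823 on the plus strand for IGFN1 and chr9:104928156-104928405 on the minus strand for ABCA1. Capitals mark matches, on either strand, to any of 5 motifs, and no match in these windows overlaps another. The AP-1 motif was searched as TGANTCA, with N for any base. The letters of the E-box were CACGTG. The TATA box was searched as TATAAA. The CCAAT box was searched by those letters. The GC box was searched as GGGCGG.
CCR1: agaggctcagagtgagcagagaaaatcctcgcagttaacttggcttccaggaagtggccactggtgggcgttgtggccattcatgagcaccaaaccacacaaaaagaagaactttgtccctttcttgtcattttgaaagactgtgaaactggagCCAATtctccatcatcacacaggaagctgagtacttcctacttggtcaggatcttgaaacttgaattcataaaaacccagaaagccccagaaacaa
DMBT1: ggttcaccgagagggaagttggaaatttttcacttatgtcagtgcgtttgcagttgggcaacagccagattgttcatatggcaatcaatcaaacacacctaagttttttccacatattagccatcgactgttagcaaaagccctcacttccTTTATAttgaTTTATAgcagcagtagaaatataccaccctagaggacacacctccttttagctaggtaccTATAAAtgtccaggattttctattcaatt
MYPN: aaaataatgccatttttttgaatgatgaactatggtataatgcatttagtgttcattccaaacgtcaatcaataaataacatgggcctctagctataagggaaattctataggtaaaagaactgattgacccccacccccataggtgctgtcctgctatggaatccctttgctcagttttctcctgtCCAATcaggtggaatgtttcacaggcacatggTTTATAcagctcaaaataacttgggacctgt
IGFN1: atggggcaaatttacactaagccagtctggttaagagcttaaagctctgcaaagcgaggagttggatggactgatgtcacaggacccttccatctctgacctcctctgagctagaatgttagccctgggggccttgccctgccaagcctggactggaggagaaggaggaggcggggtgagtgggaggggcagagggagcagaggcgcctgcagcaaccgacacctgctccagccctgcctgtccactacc
ABCA1: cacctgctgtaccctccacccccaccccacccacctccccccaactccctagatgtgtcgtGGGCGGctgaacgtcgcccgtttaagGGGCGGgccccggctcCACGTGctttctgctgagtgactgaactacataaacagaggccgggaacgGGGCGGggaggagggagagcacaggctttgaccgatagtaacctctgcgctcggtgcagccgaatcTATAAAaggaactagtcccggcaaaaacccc

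ABCA1 held the most matches: GC boxes starting 189, 163 and 97 bases before the start, an E-box at 147 and a TATA box at 31. DMBT1 held TATA boxes at 99, 89 and 29 bases before the start and none of the other motifs. MYPN held a TATA box at 31 and a CCAAT box at 63, CCR1 held a CCAAT box at 96, and IGFN1 held no match. No match to the AP-1 motif lay in these 5 windows. Among 35116 promoter windows of the same length, 10.716% held the TATA box, 32.008% the CCAAT box, 42.639% the GC box, 6.345% the E-box and 6.573% the AP-1 motif. GC content was 39.2% for MYPN, 39.6% for DMBT1, 45.2% for CCR1, 58.8% for IGFN1 and 61.6% for ABCA1, beside a median of 58.0% over all windows. CELF2 has 10 RefSeq start windows, some of them before the start of the GENCODE gene, of which 5 held a GC box, 3 a CCAAT box, 1 a TATA box and 1 the AP-1 motif. The deposited counts are per gene and do not say which CELF2 start was used, so none of its windows is printed. These matches are letters in a window and no measure of binding.

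The libraries summed to between 20978182 and 78776788 expected counts, and the common coefficient of variation between replicates was 5.09%. Levels below are in CPM, the count of a gene over the TMM-scaled size of its library, and ± gives the SD over 3 libraries. Changes are log2 fold changes with their standard error (SE), all from the same edgeR fit. A gene was called at a Benjamini-Hochberg adjusted p under 0.05 over all genes tested. The log2 level followed the GC content of the transcript in a different way in untreated libraries (slopes of -0.175 to -0.0956 per 10 percentage points of GC) than in the 18 treated ones (-0.0356 to 0.123). The changes of the 6 genes against untreated cells are therefore also read in a fit with this trend removed. That fit covers the 14080 tested genes with a known GC content. For other genes its values are given only where stated. BRD2, which encodes a target of JQ-1, stood at 236 ± 4.18 CPM in untreated and 629 ± 8.97 CPM in JQ-1 cells (log2 1.41, SE 0.0337, and 1.34 with the trend removed). The untreated libraries took part in the choice of the 6 genes and are shared by the 6 comparisons against them. Comparisons with GSK-484 as the reference use no library that took part in the choice.

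Markers of the line and of other cells were read as a check on the samples. SOX10, a neural crest and melanocyte factor, stood at 362 ± 11.4 CPM in untreated cells and MITF, the melanocyte master regulator, at 12.8 ± 0.530 CPM. The pigment genes MLANA, PMEL and TYRP1 averaged 0.188, 0.192 and 0.319 CPM over all libraries, and TYR reached at most 1 count. The summed level of the 7 melanocyte markers was 363 to 384 CPM in untreated, 421 to 435 CPM in TP-472 and 609 to 622 CPM in JQ-1 libraries. Of the 12 leukocyte markers, PTPRC (CD45), the pan-leukocyte gene, reached at most 3 counts, and their sum (992 to 1106 CPM in untreated, 1217 to 1275 with TP-472 and 829 to 835 with JQ-1) was mostly CD74, at 924 ± 51.7 CPM in untreated cells. The 12 skeletal muscle markers summed to 1.07 to 2.34 CPM over the 7 groups, with MYF5, MYF6 and PAX7 at 0 and MYOD1 at no more than 1 count. The 12 epithelial markers summed to 185 to 210 CPM in untreated, 221 to 234 CPM in TP-472 and 243 to 248 CPM in JQ-1 libraries. The sum was mostly CLDN4, KRT18 and KRT8, at 137, 49.3 and 13.5 CPM in untreated cells, while CDH1 reached no more than 32 counts. With JQ-1 the edgeR test called CLDN4, KRT18 and KRT8 higher and MUC1 lower (log2 -1.65, SE 0.265). Among the other leukocyte markers, CD68 stood at 136 ± 9.16 CPM in untreated and 156 ± 3.09 CPM in JQ-1 cells, and CD14, a monocyte marker, was at 0.632 ± 0.0829 CPM in untreated and 0.0855 ± 0.0443 CPM in JQ-1 cells (log2 -2.78, SE 0.432, edgeR adjusted p = 4.27e-06). The sums are not corrected for the GC trend. With the trend removed, edgeR called no melanocyte, leukocyte or epithelial marker with TP-472. SOX10, CD74, CLDN4 and KRT18 then had log2 changes of -0.044, 0.064, 0.018 and 0.075 with TP-472 (edgeR adjusted p = 0.507, 0.339, 0.817 and 0.247). With JQ-1 SOX10 stayed called higher and CD74 lower, and CD68 was no longer called (edgeR adjusted p = 0.0894). The part of these marker differences in the results below was not tested. A bulk sample does not tell fewer cells with a transcript from less transcript per cell.

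**Figure D1:**
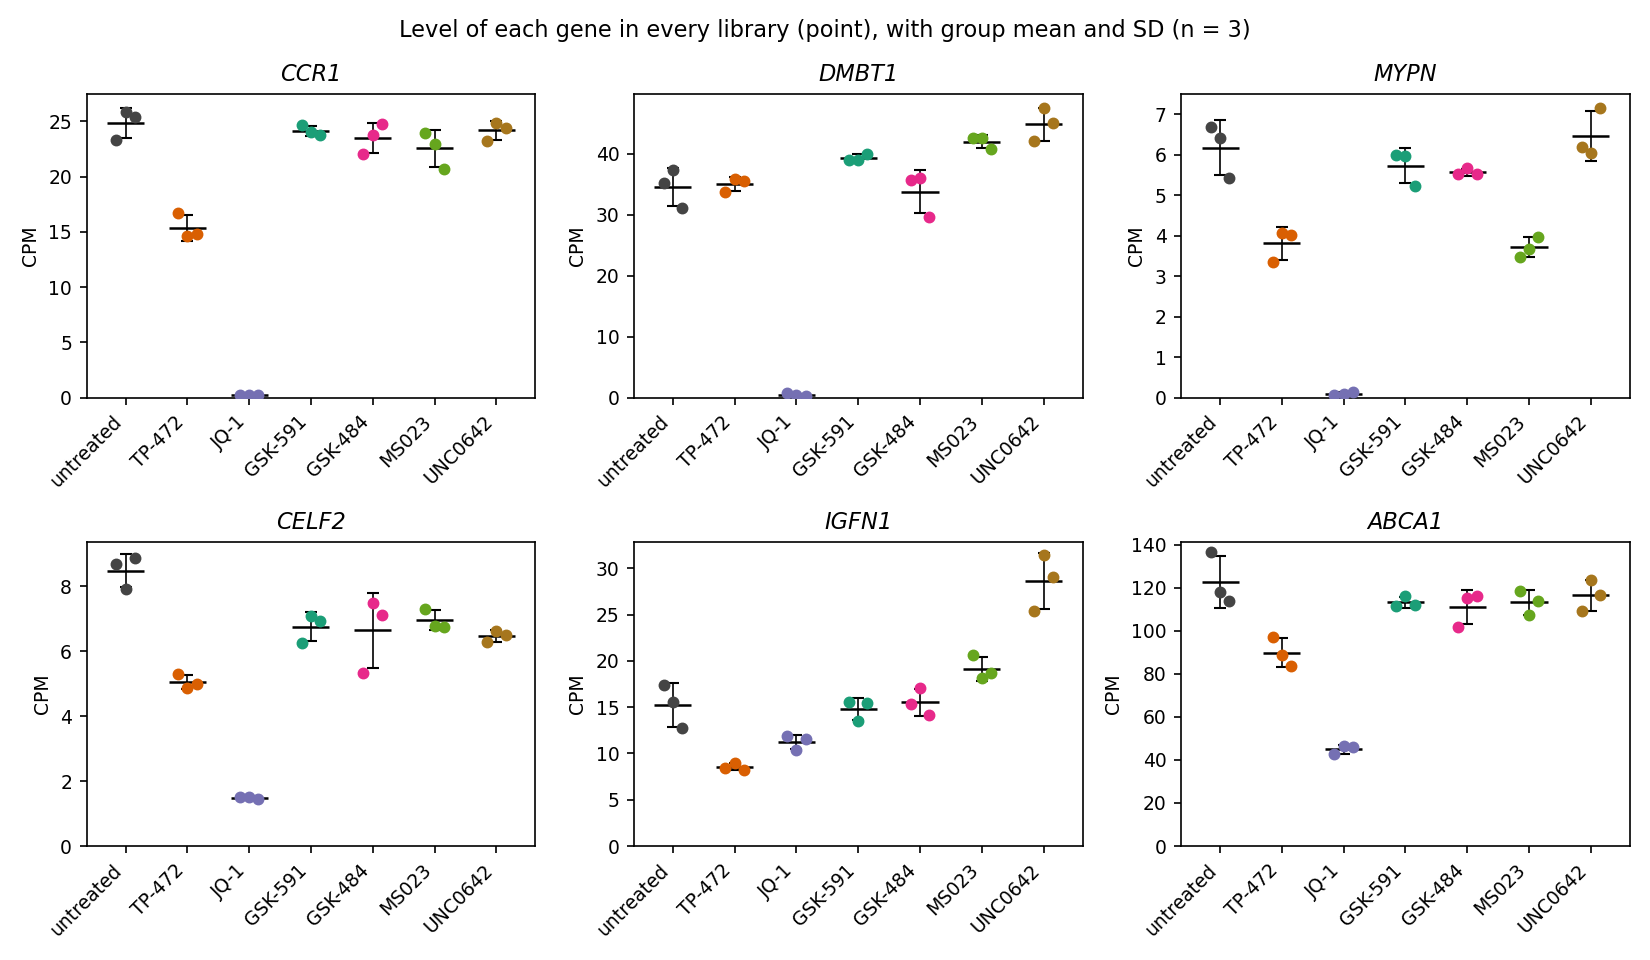
Level of each of the 6 genes in CPM (vertical axis, from 0) in every library of the 7 groups (horizontal axis). Points are libraries and bars are the mean and SD (n = 3). CCR1, DMBT1 and MYPN lie near 0 in the 3 JQ-1 libraries, while IGFN1 is lowest with TP-472 and highest with UNC0642.

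The JQ-1 libraries lay below the untreated ones without overlap for all 6 genes, which was so for 38% of all genes tested. The TP-472 libraries did so for 5 of the 6, against 18.5% of all genes, and both compounds did so together for 5, against 10%. CCR1, MYPN, CELF2 and ABCA1 stood in the order untreated, TP-472, JQ-1 without overlap, an order held by 7.1% of all genes. IGFN1 alone of the 6 stood in the order untreated, JQ-1, TP-472, held by 0.398% of all genes. The rule used these contrasts, so nothing is read from these counts. The edgeR quasi-likelihood test called 31.8% of all genes with TP-472 and 73.3% with JQ-1 against untreated cells (12.1% and 74.7% with the GC trend removed). The 6 genes differed in how low they were with JQ-1. A larger fall with JQ-1 than that of CCR1, DMBT1 or MYPN was fitted for 16, 26 and 32 of the 15062 genes, whereas 485 genes had a larger fall than CELF2, 1250 than ABCA1 and 4129 than IGFN1. With TP-472 the order differed: 127 genes had a larger fall than IGFN1, 160 than CELF2, 198 than MYPN, 201 than CCR1 and 481 than ABCA1.

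Per length of the longest annotated transcript, the untreated levels of the 6 genes ran from 1.01 ± 0.110 RPKM for MYPN, 1.05 ± 0.0628 for CELF2 and 1.29 ± 0.197 for IGFN1 to 4.28 ± 0.386 for DMBT1, 9.10 ± 0.503 for CCR1 and 11.7 ± 1.16 for ABCA1. The libraries of MYPN, CELF2 and IGFN1 overlapped with their neighbours in this order, and those of DMBT1, CCR1 and ABCA1 did not. With JQ-1 the order became MYPN at 0.0151, DMBT1 at 0.0537, CCR1 at 0.0794, CELF2 at 0.185, IGFN1 at 0.953 and ABCA1 at 4.28 RPKM. The JQ-1 libraries of DMBT1 and CCR1 overlapped, so their order is not separated. IGFN1 thus moved from the fourth highest place to the second, and CCR1 from the second to the fourth.

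CCR1, on chromosome 3 at 46201709 to 46208396 of hg38 on the minus strand, encodes a G protein-coupled receptor for inflammatory chemokines such as CCL3 and CCL5 and is best known in monocytes and neutrophils. Its level was 23.3, 25.9 and 25.4 CPM in the untreated libraries, 16.7, 14.6 and 14.8 CPM with TP-472, and 0.220, 0.224 and 0.206 CPM with JQ-1. The 3 groups did not overlap, and the JQ-1 libraries held only 8, 8 and 6 CCR1 counts. The mean was thus 61.8% of untreated with TP-472 (log2 -0.69, SE 0.0635) and 0.872% with JQ-1 (log2 -6.81, SE 0.131). With the GC trend removed the log2 changes were -0.66 and -6.78. From summed counts of 3091 and 22, the untreated level was 114 times the JQ-1 level, with an exact 95% interval of 74.9 to 182 that covers counting error only.

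In the other 12 treated libraries CCR1 stayed between 20.7 and 24.9 CPM, overlapping the untreated ones. UNC0642 gave 24.2 ± 0.828 CPM, GSK-591 24.2 ± 0.453, GSK-484 23.5 ± 1.38 and MS023 22.6 ± 1.67. None of the 7 tested comparisons called it in edgeR (1 at an unadjusted p under 0.05, and 0 in DESeq2). The lowest edgeR adjusted p against untreated, 0.0785, was that of MS023 (log2 -0.14, SE 0.0616). Without MS023 replicate 1, without untreated replicate 1 or with total-count scaling it was 0.0388, 0.0363 and 0.0264. With the GC trend removed it was 0.371 (log2 -0.085).

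DMBT1, on chromosome 10 at 122560665 to 122643736 on the plus strand, encodes a large secreted glycoprotein of mucosal surfaces built from repeated scavenger receptor cysteine-rich (SRCR) domains. Its level was 35.2, 37.3 and 31.2 CPM in untreated cells, 33.7, 35.8 and 35.5 CPM with TP-472, and 0.661, 0.364 and 0.275 CPM with JQ-1. TP-472 libraries lay inside the untreated range and JQ-1 libraries far below it, at 24, 13 and 8 counts. The log2 change was 0.019 (SE 0.0732) with TP-472 and -6.27 (SE 0.145) with JQ-1, and with the GC trend removed it was -0.12 and -6.36. Summed counts of 4316 and 45 put the untreated level at 77.6 times the JQ-1 level (exact 95% counting interval 57.9 to 107).

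DMBT1 was called higher in 4 of the 7 tested comparisons. It stood at 44.8 ± 2.68 CPM with UNC0642, 42.0 ± 1.05 with MS023 and 39.3 ± 0.557 with GSK-591, each without overlap with untreated cells, and at 33.8 ± 3.56 with GSK-484. Against untreated, UNC0642 was higher by a log2 change of 0.38 (SE 0.0717, edgeR adjusted p = 0.00187, and 0.0203 with the GC trend removed). MS023 was higher by 0.28 (SE 0.0726, adjusted p = 0.00325), a call lost with the GC trend removed (log2 0.11, edgeR adjusted p = 0.288). GSK-591 (log2 0.19, adjusted p = 0.0566 in edgeR) and GSK-484 (-0.032, adjusted p = 0.804) were not called. DESeq2 did call GSK-591 (adjusted p = 0.0353) and so did edgeR without untreated replicate 2 (0.0256). With the GC trend removed the GSK-591 change was only 0.053 (edgeR adjusted p = 0.678) and that of GSK-484 -0.14 (0.319). Against GSK-484, both UNC0642 (log2 0.41, SE 0.0721, adjusted p = 0.00535) and MS023 (0.31, SE 0.0730, adjusted p = 0.00733) were called higher by edgeR, also with the GC trend removed (adjusted p = 0.00174 and 0.0241). Without GSK-484 replicate 3 the MS023 call was lost (edgeR adjusted p = 0.0582), and without UNC0642 replicate 2 the UNC0642 call was lost (0.0722).

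MYPN, on chromosome 10 at 68106117 to 68212017 on the plus strand, encodes myopalladin, which links actin to the Z-disc of the sarcomere and shuttles to the nucleus. Its level was 6.68, 6.42 and 5.41 CPM in untreated cells, 3.34, 4.06 and 4.01 CPM with TP-472, and 0.0551, 0.0839 and 0.138 CPM with JQ-1. The JQ-1 libraries held 2, 3 and 4 counts, near the limit of detection at this depth. The log2 change was -0.70 (SE 0.110) with TP-472 and -6.07 (SE 0.215) with JQ-1, and with the GC trend removed -0.69 and -6.06. Summed counts of 775 and 9 put the untreated level at 69.7 times the JQ-1 level (exact 95% counting interval 36.5 to 153).

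MYPN was also lower with MS023. The MS023 libraries stood at 3.48, 3.67 and 3.97 CPM, below every untreated library and overlapping the TP-472 ones. MYPN fell by 0.74 on the log2 scale with MS023 against untreated (SE 0.110, edgeR adjusted p = 1.8e-05) and by 0.59 against GSK-484 (SE 0.112, edgeR adjusted p = 0.00177). Both calls held with the GC trend removed (adjusted p = 0.000125 and 0.00256) and without any single library of the groups compared (highest edgeR adjusted p 0.000248 and 0.0127). UNC0642, GSK-591 and GSK-484 gave 6.45 ± 0.610, 5.73 ± 0.435 and 5.56 ± 0.0859 CPM, overlapping untreated cells, and none was called.

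IGFN1, on chromosome 1 at 201190825 to 201228952 on the plus strand, encodes a protein of immunoglobulin-like and fibronectin type III domains that binds sarcomere components and is known from skeletal muscle. Its level was 17.4, 15.6 and 12.8 CPM in untreated cells, 8.42, 9.01 and 8.26 CPM with TP-472, and 11.9, 10.4 and 11.5 CPM with JQ-1. It was the only one of the 6 with every TP-472 library below every JQ-1 library. The log2 change was -0.83 (SE 0.103) with TP-472 and -0.44 (SE 0.103) with JQ-1, and with the GC trend removed -0.98 and -0.54. TP-472 lay below JQ-1 by a log2 difference of -0.39 (SE 0.108).

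IGFN1 showed the strongest rise of the 6 genes in the 7 tested comparisons, of which those against untreated share libraries with the choice. The UNC0642 libraries stood at 25.4, 31.4 and 29.1 CPM, above every library of the other 6 groups. IGFN1 rose with UNC0642 by a log2 change of 0.91 against untreated (SE 0.0930, edgeR adjusted p = 5.92e-06) and 0.89 against GSK-484 (SE 0.0935, edgeR adjusted p = 1.99e-05). With the GC trend removed the changes were 0.81 and 0.91 (edgeR adjusted p = 5.37e-05 and 1.63e-05), and no left-out library ended either call. MS023, at 19.1 ± 1.28 CPM, was called higher against untreated (log2 0.32, SE 0.0961, edgeR adjusted p = 0.0091) and against GSK-484 (0.30, SE 0.0966, edgeR adjusted p = 0.0435). Both MS023 calls were lost with the GC trend removed (edgeR adjusted p = 0.387 and 0.161), without MS023 replicate 1 (0.0508 and 0.157), and without untreated replicate 3 for the first (0.0732). The second was also lost without GSK-484 replicate 1 or 3 or MS023 replicate 2 or 3 (edgeR adjusted p = 0.0664 to 0.19). GSK-484 and GSK-591 stood at 15.5 ± 1.44 and 14.8 ± 1.16 CPM and were not called.

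CELF2, on chromosome 10 at 10798397 to 11336675 on the plus strand, encodes an RNA-binding protein that regulates alternative splicing and mRNA stability, best known in muscle, nerve and T cells. Its level was 8.66, 7.90 and 8.85 CPM in untreated cells, 5.29, 4.87 and 4.99 CPM with TP-472, and 1.52, 1.51 and 1.44 CPM with JQ-1. The 3 groups formed separate steps, with means of 8.47, 5.05 and 1.49 CPM. The log2 change was -0.75 (SE 0.0982) with TP-472 and -2.50 (SE 0.120) with JQ-1, and with the GC trend removed -0.66 and -2.39.

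CELF2 was lower than untreated with every compound, and its 4 other treated groups lay between the untreated and the TP-472 levels. MS023 gave 6.94 ± 0.309 CPM, GSK-591 6.75 ± 0.444, GSK-484 6.64 ± 1.16 and UNC0642 6.46 ± 0.179, with no library reaching the untreated range. The edgeR test called all 4 lower, with log2 changes of -0.29 to -0.39 (SE 0.0942 to 0.0990) and adjusted p of 0.00815 to 0.0175. With the GC trend removed only UNC0642 was still called (log2 -0.32, adjusted p = 0.0483 in edgeR), and the others had changes of -0.16 to -0.28 with adjusted p of 0.102 to 0.249. Without GSK-484 replicate 1, whose 5.32 CPM was the lowest value of the 12 libraries, the GSK-484 change was -0.22 and not called (edgeR adjusted p = 0.0967). Other libraries ended calls too: GSK-591 replicate 1 that of GSK-591 (0.0757), untreated replicate 1 those of GSK-484 (0.0628) and MS023 (0.0564), and untreated replicate 3, MS023 replicate 2 and MS023 replicate 3 that of MS023 (0.0591, 0.0642 and 0.0528). Against GSK-484 none of the 3 compounds was called (adjusted p = 0.714 to 0.94 in edgeR).

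ABCA1, on chromosome 9 at 104781002 to 104928237 on the minus strand, encodes the transporter that loads cholesterol and phospholipid onto apolipoprotein A-I, and it is a classic target of the liver X receptors. Its level was 137, 118 and 114 CPM in untreated cells, 97.3, 88.8 and 83.5 CPM with TP-472, and 42.7, 46.3 and 45.9 CPM with JQ-1. The groups did not overlap, and the mean was 73.2% of untreated with TP-472 and 36.6% with JQ-1. The log2 change was -0.45 (SE 0.0664) with TP-472 and -1.45 (SE 0.0701) with JQ-1, and with the GC trend removed -0.41 and -1.40. The other 4 compounds left ABCA1 at means of 111 to 116 CPM, each overlapping untreated cells. None of the 7 tested comparisons called it in edgeR, with adjusted p of 0.123 to 0.889 (1 at an unadjusted p under 0.05, and 0 in DESeq2). Without untreated replicate 3 the GSK-484 comparison was called (log2 -0.20, edgeR adjusted p = 0.0466). With the GC trend removed and all libraries kept it was not called (log2 -0.11, edgeR adjusted p = 0.374).

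**Figure D2:**
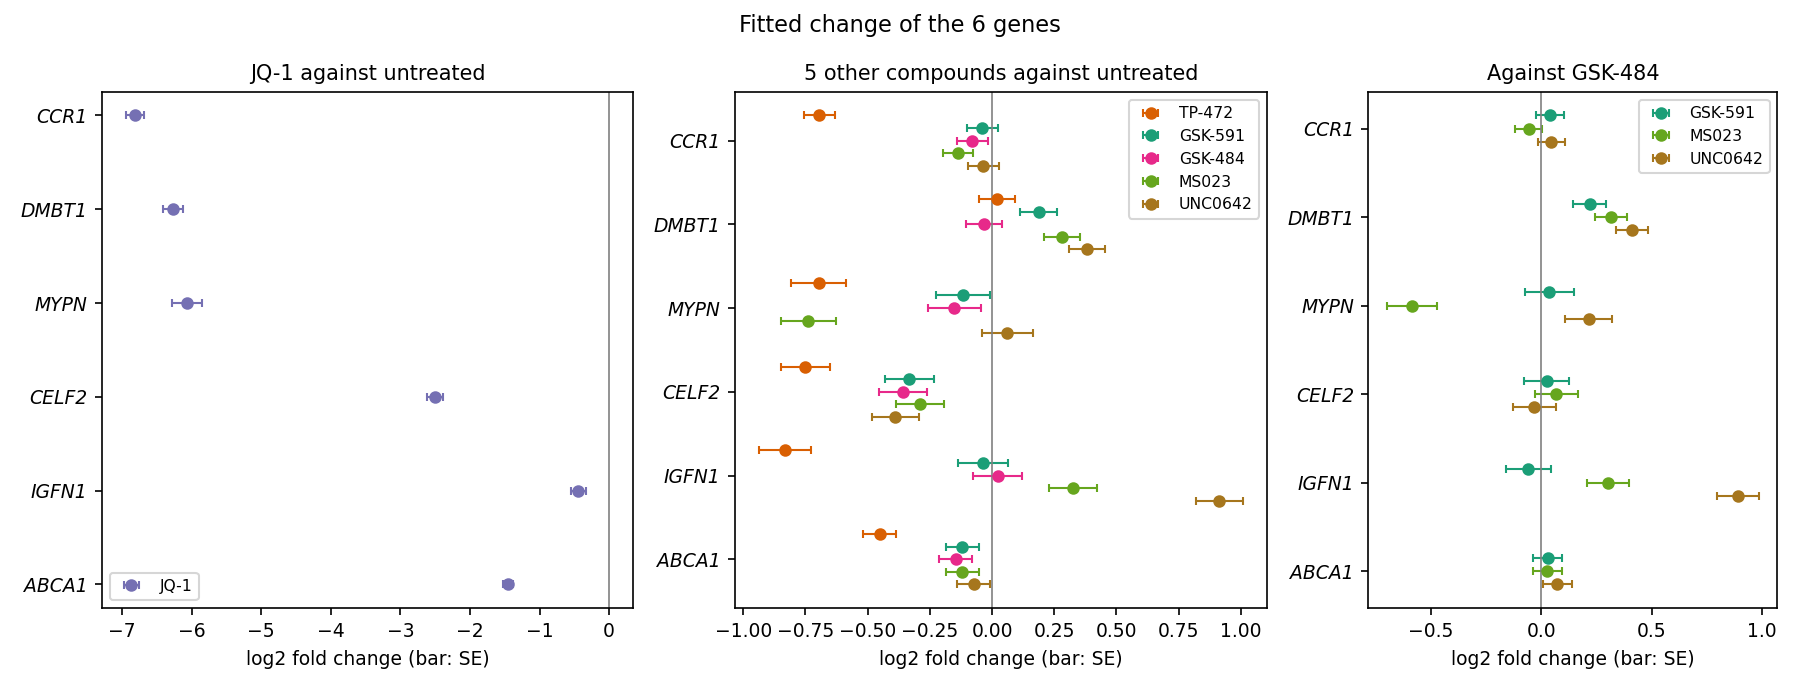
Fitted log2 fold change (horizontal axis) of the 6 genes (vertical axis) with JQ-1 against untreated, with the other 5 compounds against untreated, and with 3 compounds against GSK-484; points are estimates and bars are SE. The panels have different horizontal ranges. With JQ-1 the changes run from -6.81 (CCR1) to -0.44 (IGFN1), and outside the bromodomain inhibitors the widest are 0.91 for IGFN1 with UNC0642 and -0.74 for MYPN with MS023.

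Across the 7 tested comparisons, the 6 genes fell into different patterns. The 4 against untreated cells use libraries that took part in the choice, and only the 3 against GSK-484 do not. CELF2 was called lower in all 4 against untreated cells and in none against GSK-484. Against untreated cells, GSK-591 called 1 of the 6 (32.9% of all genes, 13.2% with the GC trend removed) and GSK-484 called 1 (19.1%, 0.717% with the trend removed), in each case CELF2. MS023 called 4 (42.6%, 17.2% with the trend removed): DMBT1 and IGFN1 higher, and MYPN and CELF2 lower. UNC0642 called 3 (16.3%, 3.07% with the trend removed): DMBT1 and IGFN1 higher and CELF2 lower. Against GSK-484, GSK-591 called none of the 6 (2.65%, 3.52% with the trend removed; by an unadjusted p under 0.05 it called 1, DMBT1, and DESeq2 called 0). MS023 called 3 (12.5%, 7.88% with the trend removed): DMBT1 and IGFN1 higher and MYPN lower. UNC0642 called 2 (4.57%, 7.27% with the trend removed), DMBT1 and IGFN1, both higher. With the GC trend removed, the calls left were MYPN with MS023, CELF2, DMBT1 and IGFN1 with UNC0642 against untreated, and MYPN and DMBT1 with MS023 and DMBT1 and IGFN1 with UNC0642 against GSK-484.

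The 6 genes were compared with each other by likeness of pattern. Likeness was measured as the root mean square (RMS) difference over the 6 log2 changes against untreated, a description of groups that share their untreated libraries. The changes with TP-472 and JQ-1 are among the 6 and were used to choose the genes. The JQ-1 change, such as -6.81 for CCR1 and -0.44 for IGFN1, weighs most. The likeness therefore largely restates the depth of the fall with JQ-1. CCR1 and MYPN differed by 0.396, CCR1 and DMBT1 by 0.448, CELF2 and ABCA1 by 0.486, and DMBT1 and MYPN by 0.548. IGFN1 lay nearest to ABCA1, at 0.629, and farthest from CCR1, at 2.64.

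The genes most like each of the 6 were taken from 12791 tested genes with at least 1 CPM in untreated cells. For CCR1 they were KLHL14 (RMS difference 0.184, Pearson r = 0.990 over the 21 libraries), EHF, an epithelial ETS factor (0.425, r = 0.993), and CSF2, which encodes the cytokine GM-CSF (0.481, r = 0.984). These 3 genes held 197, 3988 and 815 counts in the untreated libraries together and 1, 15 and 4 with JQ-1. KLHL14 was also nearest to DMBT1 (0.380) and MYPN (0.496), followed by the sodium channel gene SCN2A (0.409) and VNN1 (0.485) for DMBT1, and by VNN1 (0.528) and CDCP1 (0.555) for MYPN. SCN2A, VNN1 and CDCP1 held only 4, 6 and 5 counts with JQ-1. For CELF2 they were TFCP2L1 (0.098, r = 0.881), KRTAP4-9 (0.170, r = 0.908) and the transporter gene SLC16A9 (0.189, r = 0.961). KRTAP4-9 belongs to a family of near-identical genes, so its reads are uncertain. For IGFN1 they were CEMIP (0.288, r = 0.808), CSPG4, a melanoma proteoglycan gene (0.3, r = 0.778), and MYEOV (0.335, r = 0.670). For ABCA1 they were PPFIA2 (0.086, r = 0.934), CYBRD1, a duodenal ferric reductase gene (0.0922, r = 0.974), and PDGFC, a growth factor gene (0.105, r = 0.959). The correlations rest mainly on the distance of the 3 JQ-1 libraries from the rest and are given with no p.

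The nearest tested genes on the chromosome were called at shares near those of all genes, which were 73.3% with JQ-1 and 31.8% with TP-472, and nothing is read from their counts. Of the 24 neighbours (the nearest 2 tested genes on each side of each gene), the edgeR test called 14 lower and 6 higher with JQ-1 and left 4 uncalled (13 lower and 5 higher with the GC trend removed, and 16 lower and 3 higher with total-count scaling). With TP-472 it called 4 lower and 4 higher and left 16 uncalled, and with the GC trend removed 1 lower and 1 higher. Near CCR1, LTF (lactoferrin, 277 kb away) was at 8.63 CPM in untreated and 1.01 CPM in JQ-1 cells (log2 -3.08, SE 0.134, edgeR adjusted p = 1.56e-15). CCRL2, an atypical chemokine receptor gene 199 kb away, had a log2 change of -1.65 (SE 0.248, edgeR adjusted p = 2.93e-06). On the other side LZTFL1 and FYCO1 had changes of -0.53 and 0.20 with JQ-1. With the GC trend removed these were -0.29 and 0.14, and FYCO1 was not called (edgeR adjusted p = 0.0832). Of the chemokine receptor genes of the same cluster, CCR2, CCR3, CCR9 and XCR1 reached at most 3 counts in any library, and CXCR6 reached 19, so none of these was tested.

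DMBT1 had neighbours with JQ-1 changes of -0.59 (PLEKHA1) to -0.13 (FAM24B), and MYPN of -0.47 (HERC4) to 1.13 (PBLD). From start to start, the genes on either side of CELF2 lay at long distances: USP6NL (-0.21 with JQ-1) at 813 kb and PROSER2 (0.27) at 1025 kb, and TAF3 (0.88) and GATA3 (0.036) farther off on the other side. With the GC trend removed USP6NL was at -0.11 with JQ-1 and not called (edgeR adjusted p = 0.0823). Near ABCA1 all 4 estimates were negative with both compounds, from -0.52 (NIPSNAP3B) to -0.37 (SLC44A1) with JQ-1. With the GC trend removed NIPSNAP3A was at 0.018 with TP-472. The exception in size was CACNA1S, a muscle calcium channel gene next but one to IGFN1. It held 79 counts over the untreated libraries, 49 with TP-472 and 0 with JQ-1, which is at least 21.3-fold lower at a floor of 3 counts over the group, beside IGFN1 itself at 73.9% of untreated.

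**Figure D3:**
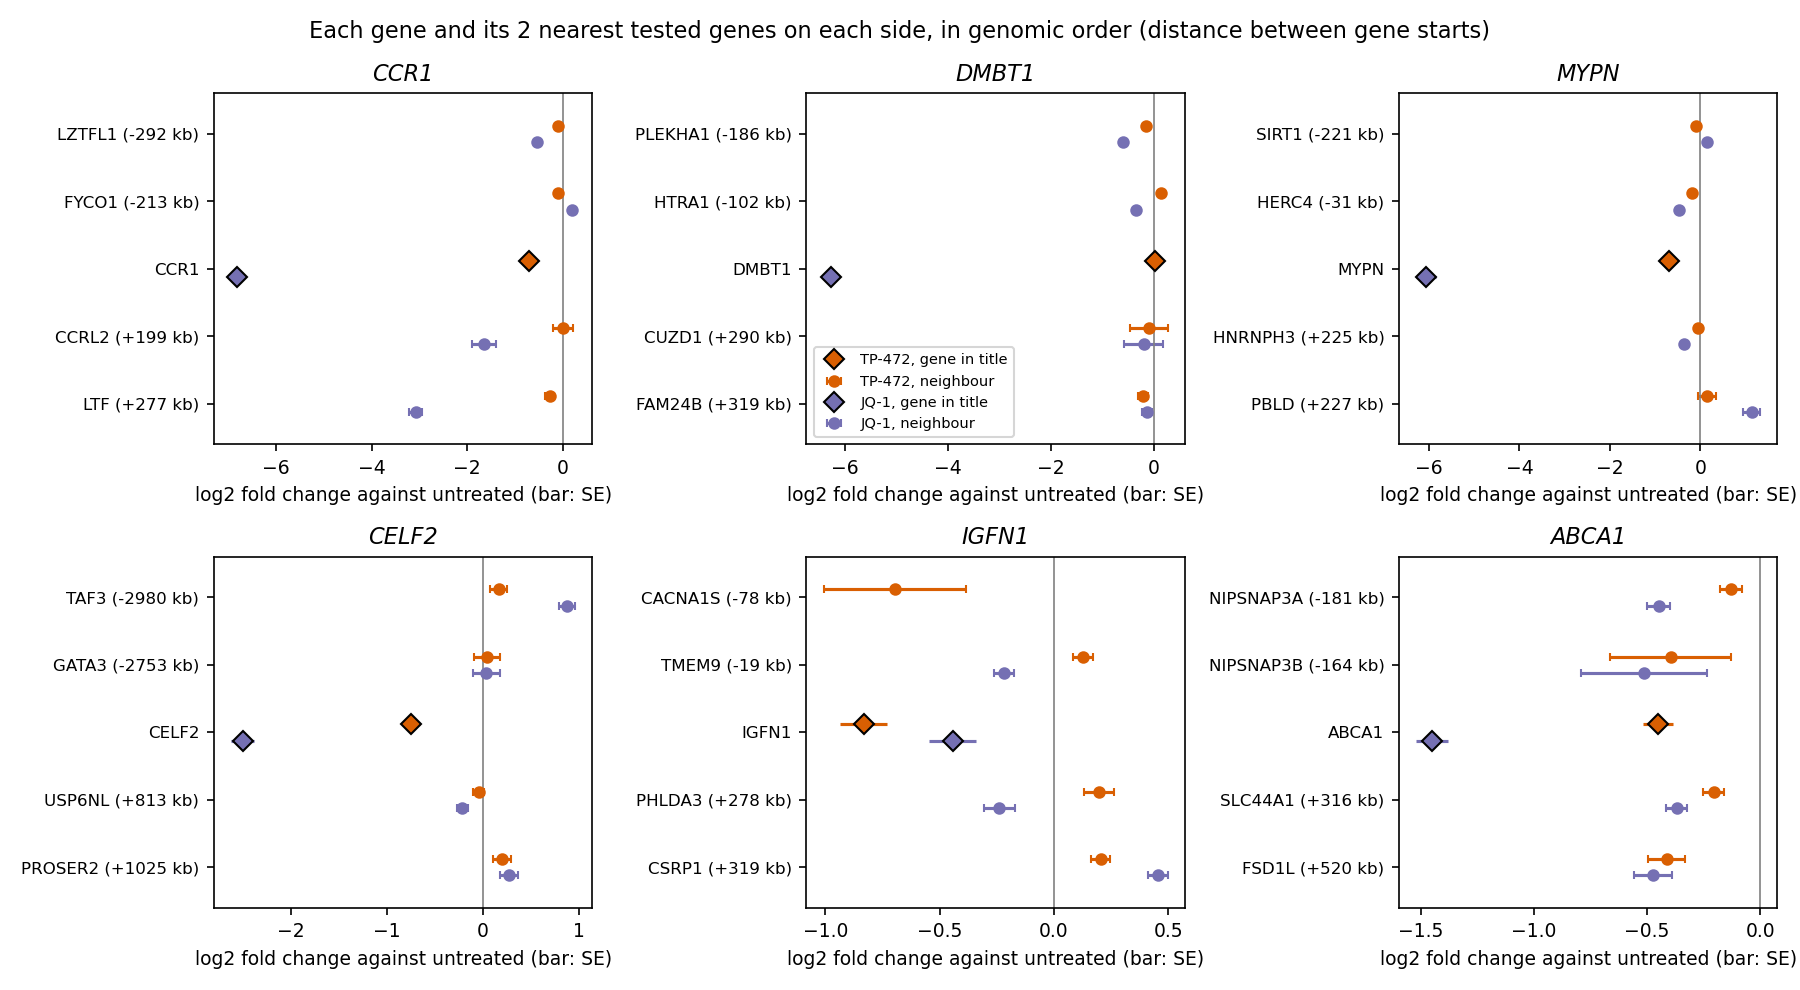
Log2 fold change against untreated (horizontal axis) with TP-472 and JQ-1 for each of the 6 genes (diamonds) and its 2 nearest tested genes on each side (circles), listed in genomic order with the distance between gene starts in kb; bars are SE, and the JQ-1 value of CACNA1S, with 0 counts, is left out. The panels have different horizontal ranges. CCR1, DMBT1, MYPN and CELF2 stand at -6.81, -6.27, -6.07 and -2.50 with JQ-1, and the lowest neighbour plotted is LTF at -3.08.

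Genes related by function were read from lists, with the 6 picked genes left out, against the 31.8% and 73.3% of all genes called. Scaling by total counts alone, in place of TMM, set the median of all genes with JQ-1 at -0.15, so the split of the lists under it is given where it differed by more than 1 gene. Of 22 other chemokine receptor genes 4 were tested: JQ-1 lowered CCRL2 and left 3 uncalled, and with TP-472 CCR10 was called higher (log2 0.80, edgeR adjusted p = 0.0483), but not with the GC trend removed, with other scaling or by DESeq2. The median change of the 4 was 0.065 with JQ-1 (-0.072 with total-count scaling) and -0.073 with TP-472. Of 11 ligand genes of CCR1 only CCL3 was tested. It went from 2.79 ± 0.142 CPM in untreated to 0.632 ± 0.177 CPM in JQ-1 cells (log2 -2.12, SE 0.203, edgeR adjusted p = 2.39e-09) and was not called with TP-472 (log2 0.22). CCL3 has near-identical copies, so its reads are uncertain.

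SRCR-domain genes other than DMBT1 mostly fell with JQ-1. Of 11 tested, 9 were called lower and 2 higher, with a median log2 change of -1.33 beside -0.0064 over all genes. Over all 15062 genes 5660 were called lower and 5377 higher with JQ-1. Some of the SRCR genes called lower stood under 1 CPM in untreated cells. SCARA5, a ferritin receptor gene, had the lowest change at -3.16 (SE 0.353), LOXL4, a lysyl oxidase gene, went from 10.6 ± 0.759 to 2.1 ± 0.149 CPM (-2.33, SE 0.0929), and CFI, complement factor I, from 14.7 ± 0.814 to 4.61 ± 0.635 CPM (-1.68, SE 0.0859). LGALS3BP and LOXL2 were the 2 called higher. With TP-472, LOXL3 and LOXL4 were lower, and LGALS3BP and LOXL2 higher, the latter pair not with the GC trend removed. The median with TP-472 was -0.12.

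Of 16 sarcomere and Z-disc genes tested, JQ-1 raised 7, lowered 4 and left 5 uncalled, with a median log2 change of 0.40 (5 raised and 6 lowered with total-count scaling, median 0.25), a share called near the 73.3% of all genes. FLNC, filamin C of the Z-disc, rose from 8.17 ± 0.568 to 38.6 ± 2.39 CPM (2.24, SE 0.104, edgeR adjusted p = 5.57e-15), and ANKRD1, a cardiac ankyrin repeat gene, from 2.97 ± 0.403 to 6.79 ± 0.741 CPM (1.2, SE 0.172, edgeR adjusted p = 1.42e-06). The 4 lower ones were TTN, NEB, NEBL and OBSL1, named outside the rule after their values were seen. TP-472 lowered NEB and PDLIM5, raised PDLIM7 and left 13 uncalled, with a median of 0.056, and PDLIM7 was not called with the GC trend removed.

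Of 17 splicing regulators related to CELF2 that were tested, JQ-1 lowered 8, raised 3 and left 6 uncalled (median -0.20, and -0.013 with the GC trend removed; 11 lowered and 3 raised with total-count scaling), and TP-472 lowered 6, raised 1 and left 10 uncalled (median -0.092). MBNL3, a muscleblind gene, went from 3.56 ± 0.447 to 0.914 ± 0.0997 CPM with JQ-1 (-1.96, SE 0.188), NOVA1, a neuronal splicing factor gene, from 7.42 ± 0.653 to 2.01 ± 0.315 CPM (-1.89, SE 0.120), and KHDRBS3 rose from 28.4 ± 0.563 to 52.2 ± 0.605 CPM (0.88, SE 0.0402). With TP-472 the changes were smaller, such as MBNL1 at -0.32 (SE 0.0530) and QKI at -0.29 (SE 0.0423), both still called with the GC trend removed.

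Of the 5 other ABCA transporter genes tested, JQ-1 called 4 higher and 0 lower, with a median log2 change of 1.14, and 3 stayed called with the GC trend removed. ABCA13 was not called (log2 -0.0086). Over all genes 73.3% were called with JQ-1 in one direction or the other, so a count of called genes in so short a list says little of the list. ABCA3, of lung surfactant lipid, rose from 0.382 ± 0.187 to 5.36 ± 0.156 CPM (3.76, SE 0.355), ABCA7 from 17.1 ± 1.63 to 39.6 ± 0.697 CPM (1.21, SE 0.0679) and ABCA5 from 10.4 ± 0.832 to 23.0 ± 0.694 CPM (1.14, SE 0.0796). ABCA2 was higher with both compounds (0.28 with JQ-1 and 0.22 with TP-472), and in neither case with the GC trend removed. Of 20 tested genes of the liver X receptor and cholesterol efflux list, JQ-1 raised 8, lowered 5 and left 7 uncalled (median 0.053; with total-count scaling 6 raised, 9 lowered and a median of -0.091), and TP-472 raised 6, lowered 2 and left 12 uncalled (median 0.077). With the GC trend removed TP-472 raised 1, NR1H2, and lowered 2, SCD and NPC1. NR1H3, which encodes the receptor LXR alpha, rose with JQ-1 from 1.58 ± 0.0658 to 4.50 ± 0.305 CPM (1.51, SE 0.139, edgeR adjusted p = 1.17e-09), while its target ABCA1 stood at 36.6% of untreated in the same libraries.

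**Figure D4:**
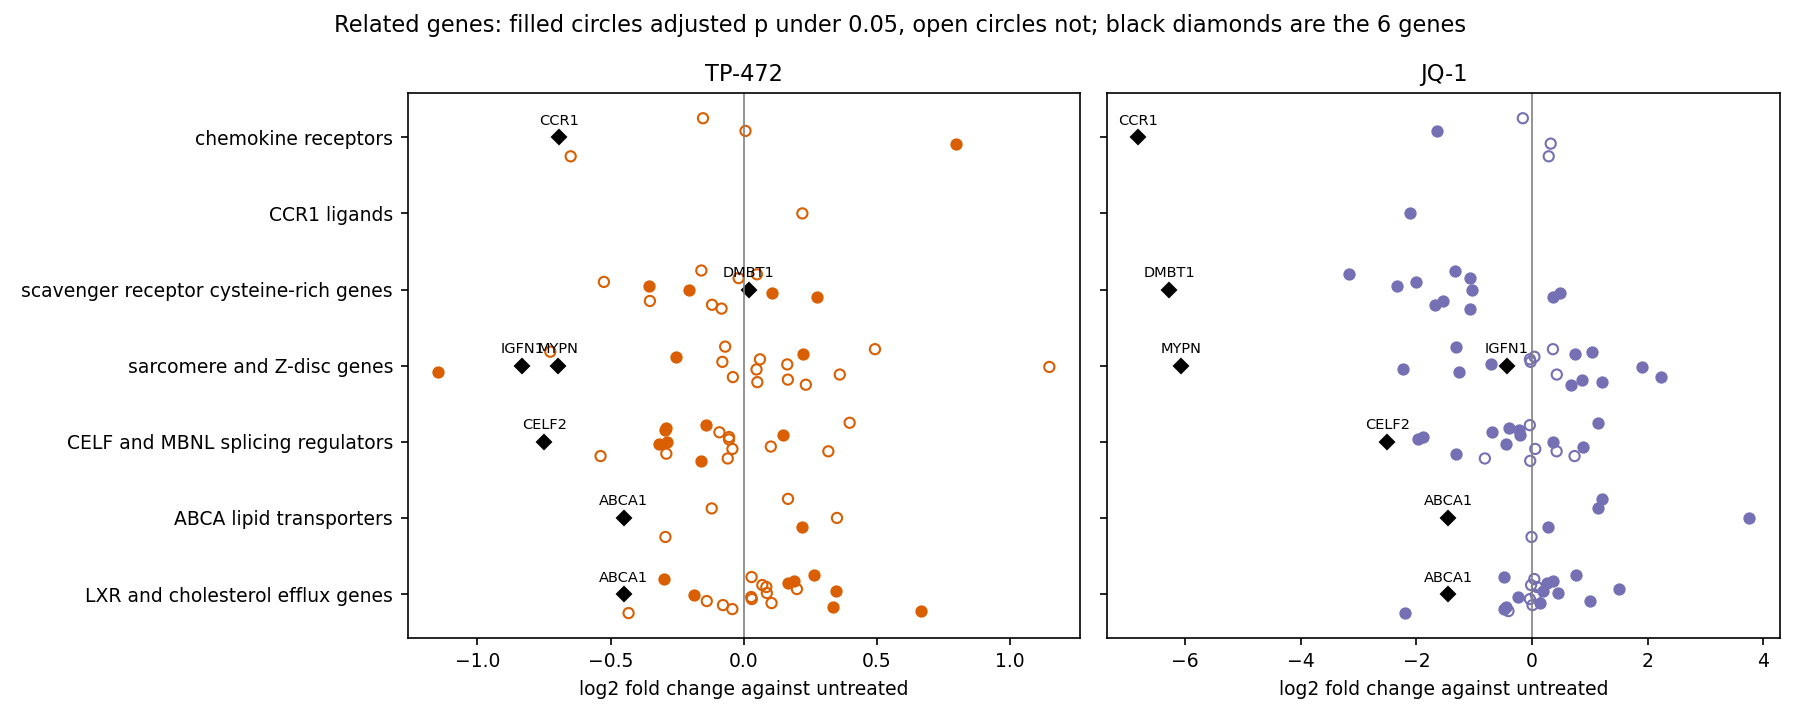
Log2 fold change against untreated (horizontal axis) of the tested genes of each list (rows) with TP-472 and JQ-1; filled circles have an edgeR adjusted p under 0.05, open circles do not, and black diamonds are the 6 picked genes, which were not tested. The horizontal ranges differ between panels. With JQ-1 the SRCR genes lie mostly left of 0 and the ABCA genes, other than ABCA1, at or right of it.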

How the data were processed

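The deposited table holds expected counts per gene, which the authors made with Bowtie2 2.1.0 and RSEM 1.2.15 on hg38, per the submitters' processing notes; the annotation used is not given in the sources used. The values are estimates of reads per gene, not scaled between libraries, so reads shared by similar genes are split between them. The expected counts of all 6 genes were whole (within 0.005) in all 21 libraries, as were those of 72.3% of the genes tested, so no split read of theirs was visible. Strand use in counting is not stated. Of the genes in the table that overlap one of the 6 by position, CCR3, LINC00710, CELF2-AS2 and CELF2-AS1 held at most 2, 0, 2 and 5 counts in a library.

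After rounding to whole numbers, low genes were removed by filterByExpr (counts of at least 10, totals of at least 15). In R 4.3.3, edgeR 4.0.16 scaled all 21 libraries by TMM and fitted them with 1 term for group. Each contrast used the two-sided edgeR quasi-likelihood test, with p-values adjusted over all 15062 genes, and fold changes use a prior count of 0.125. Groups come from the treatment label and numbers from the titles. RPKM here is CPM per kilobase of the longest GENCODE 29 transcript. The GC trend was removed with a loess of log2 CPM on the GC content of that transcript (span 0.3), known for 93.5% of genes tested. Replicates of a group differed by a chi-square of 3.44 to 58.4 per degree of freedom over 21 pairs, with 0 identical pairs. The fit was tested on simulated data. The 6 genes and the 12 gene lists were chosen with earlier results of these data known, and a few listed genes are not reported here.

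Named are the 6 genes, up to 4 called genes a list and compound with the largest change at 1 CPM or more, 2 neighbours a side, and 3 genes most alike in pattern. Some listed genes are named outside this rule, among them CD14, CCR10, NEB and MUC1, which stood under 1 CPM in both groups of the comparison given. Alternatives were DESeq2 1.42.0, RLE and total-count scaling, no filter, a replicate block, GC removal, 2 groups fitted alone, a prior count of 2 and leaving out each library.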

Additional observations from a re-analysis of the deposited data

How the results depend on the processing

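Of the alternatives for the 6 genes, none turned the direction of a change with TP-472 or JQ-1 except for DMBT1 with TP-472, which lay near 0 (log2 -0.12 with the GC trend removed, -0.12 with the replicate block as well, and -0.0486 to 0.0755 over left-out libraries). With the trend removed, CELF2 moved to -0.66 with TP-472 and -2.39 with JQ-1 (-0.66 and -2.39 with the block as well). Total-count scaling moved the median of all genes with JQ-1 from -0.0064 to -0.15, and CCR1, CELF2 and ABCA1 to -6.96, -2.65 and -1.59. A prior count of 2 gave -6.54 for CCR1 and -5.49 for MYPN with JQ-1, where counts are few. Left-out libraries gave -6.72 to -6.06 for DMBT1 and -6.41 to -5.80 for MYPN with JQ-1.

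Same-numbered replicates correlated by -0.13 to 0.14 over 27 pairs and are not taken as pairs. The replicate block called 4654 genes with TP-472 and 11000 with JQ-1, ended the call of IGFN1 with MS023 against GSK-484 (edgeR adjusted p = 0.0501) and added that of DMBT1 with GSK-591 (0.0406). With the GC trend removed as well it also ended that of CELF2 with UNC0642 (0.0585). Fitting 2 groups alone ended the calls against GSK-484 of DMBT1 with UNC0642 (0.0579) and IGFN1 with MS023 (0.0675), and that of CELF2 with GSK-484 against untreated (0.14). Total-count scaling ended that of IGFN1 with MS023 against GSK-484 (0.0556) and added ABCA1 with GSK-591 (0.0451) and MS023 (0.0456).

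Counts over all genes depended on the GC trend. Removing it left 1697 called with TP-472, 1852 with GSK-591, 101 with GSK-484, 2423 with MS023 and 432 with UNC0642 against untreated, and 1110 with MS023 against GSK-484. With the block as well these were 1586, 1764, 88, 2326, 364 and 1006. Fitting 2 groups alone, where fewer libraries estimate the spread, called 9 genes with GSK-484 and 1490 with UNC0642 against untreated, and 415 with MS023, 7 with UNC0642 and 0 with GSK-591 against GSK-484 (1827 at an unadjusted p under 0.05). For the last, DESeq2 on all libraries called 625. Leaving out a library gave 2791 to 4925 with TP-472, 3243 to 4937 with GSK-591, 918 to 3166 with GSK-484 and 1096 to 2427 with UNC0642 against untreated, and 107 to 358 with GSK-591, 743 to 2217 with MS023 and 14 to 1383 with UNC0642 against GSK-484. The cause was not tested.

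In the tested comparisons, 27 of the values of the 6 genes changed sign, none of them called in either setting. Total-count scaling gave -0.011 for CELF2 and -0.0065 for ABCA1 with GSK-591 against GSK-484, and -0.0059 for IGFN1 with GSK-484 against untreated, which was -0.10 with the GC trend removed and -0.097 with the block as well. The other sign changes came from left-out libraries, with these ranges of log2 change. For CCR1 they were -0.00725 to 0.0767 for GSK-591 against GSK-484 and -0.00178 to 0.0819 for UNC0642 against GSK-484. For DMBT1 they were -0.10 to 0.0528 for GSK-484 against untreated. For MYPN they were -0.0239 to 0.13 for UNC0642 against untreated and -0.00322 to 0.10 for GSK-591 against GSK-484. For CELF2 they were -0.12 to 0.12 for GSK-591 against GSK-484, -0.0731 to 0.16 for MS023 against GSK-484 and -0.17 to 0.0616 for UNC0642 against GSK-484. For IGFN1 they were -0.15 to 0.0762 for GSK-591 against untreated, -0.0895 to 0.13 for GSK-484 against untreated and -0.12 to 0.0123 for GSK-591 against GSK-484. For ABCA1 they were -0.13 to 0.0109 for UNC0642 against untreated, -0.0316 to 0.062 for GSK-591 against GSK-484 and -0.0323 to 0.0653 for MS023 against GSK-484. At the depth of the JQ-1 libraries, CCR1, DMBT1 and MYPN rest on 22, 45 and 9 counts.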
